A study of Mus musculus with 12 samples.

Results

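Kinesins are ATP-driven motors that move along microtubules. The family was followed here as the protein-coding genes whose mouse symbol is Kif followed by a digit, which picks 39 of the 54532 genes of the deposited table (22046 of these are protein-coding). RNA had been sequenced from C2C12, a mouse myoblast line whose cells leave the cell cycle and fuse into myotubes once serum is lowered. All cells were grown in serum-containing medium, transfected with siRNA at 30 nM and harvested after 48 h. The siCONTROL cells received a control siRNA, the siKEAP1 cells an siRNA against Keap1, the siCCNF cells an siRNA against Ccnf, and the siKEAP1/siCCNF cells both, with 3 biological replicates in each of the 4 groups. All groups share the one cell line and the transfection, the sources do not say which Ccnf siRNA was sequenced or whether cells given both siRNAs received 30 nM of each or in sum, and a knockdown leaves some of its target. KEAP1 is the adaptor through which the ubiquitin ligase CUL3 marks the antioxidant factor NRF2 for degradation, and CCNF (cyclin F) is an F-box protein whose ubiquitin ligase acts in the cell cycle.

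Mitotic kinesins build the spindle, move chromosomes and complete cytokinesis, and their mRNAs peak in G2 and M phase, so that dividing cells hold more of them than resting cells. Transport kinesins carry vesicles, organelles and mRNA along microtubules in cells that divide and in cells that do not, and several are best known from neurons. Other members work at cilia and centrioles, or shorten and stabilise microtubule ends. The study sequenced these cells to ask how CCNF depletion bears on the response to KEAP1 loss, and the comparison here asks how each class of kinesin stood in every siRNA group.

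Of the 39 members, 12 were assigned to mitosis, 13 to transport, 6 to cilia and centrioles and 7 to other roles, and Kif1bp (KIF1 binding protein) matches the symbol rule without being a motor. In all, 33 members had enough reads to be tested among 15122 genes, namely 11 mitotic, 12 transport, 5 cilium and centriole and 4 other kinesins and Kif1bp. Kif2b and Kif12 had no read in any library, a count that allows up to 3 reads. Kif28 had 2 reads in 1 siKEAP1/siCCNF library and none elsewhere, Kif26a had 0 to 5 reads per library and Kif27 3 to 14. Kif17, a motor of dendrites and cilia, had 7, 6 and 2 reads in the siCONTROL libraries, 8, 17 and 10 after siKEAP1, 0, 1 and 3 after siCCNF and 0, 1 and 0 after both siRNAs. None of these 6 genes was tested.

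The libraries held 18464209 to 37743198 counts assigned to genes. All 8 myoblast markers were above 1 CPM (reads of a gene scaled to the size of its library) in every group, and their summed level lay at 5001 to 5384 CPM in siCONTROL, 4050 to 4223 after siKEAP1, 3032 to 3135 after siCCNF and 2954 to 3186 after both. The 10 markers of differentiated myocytes summed to 79.4 to 172 CPM, 7.24 to 8.78, 28.0 to 40.3 and 16.0 to 18.2 in the same order, so the depleted cells also held less RNA of early differentiation, and the part of either change in the kinesin results was not tested. Of the 4 neural markers only Tubb3 passed 1 CPM. The 4 leukocyte markers summed to 0.672 to 1.36 CPM in siCONTROL and 5.39 to 10.1 after siKEAP1, where only Cd68 passed 1 CPM, and the 4 endothelial markers to 0.448 to 0.722 and 1.45 to 2.04. Their part in the siKEAP1 results was not tested. In siCONTROL replicate 1 and siKEAP1/siCCNF replicate 3, long genes were low, with correlations across the 15122 genes between log2 gene length and a library's deviation from its group of -0.31 and -0.28, against -0.09 to 0.21 in the other 10 libraries. The differentiation marker Myog was at 74.6 CPM in siCONTROL replicate 1, against 32.0 and 29.3 in the other siCONTROL libraries. This library therefore differed from them in more than gene length, and the part of either difference was not tested. In bulk RNA, fewer cells in mitosis and less kinesin mRNA per cell cannot be told apart.

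To compare levels between genes, the authors' FPKM values, which are scaled for gene length, were used. The order of levels in siCONTROL cells was led by Kif5b, the ubiquitous kinesin-1 heavy chain, at 46.0 ± 3.85 FPKM (SD, n = 3), and Kif1c, a kinesin-3 of vesicles and mRNA, at 44.7 ± 0.965. Mitotic motors followed, with Kif11, the kinesin-5 that pushes spindle poles apart, at 38.4 ± 2.32 FPKM and Kif20a at 36.4 ± 4.15. The means of Kif11 and Kif20a were closer to each other than either SD, and those of Kif5b and Kif1c closer than the SD of Kif5b. Kif18b (19.5 ± 1.47), Kif22 (19.2 ± 1.15) and Kif2c (18.9 ± 0.932 FPKM) came next with no separation among them. Among the 12 transport kinesins tested, Kif5a at 0.655 ± 0.105 and Kif1a at 0.417 ± 0.0496 FPKM were the lowest in siCONTROL cells. Both are neuronal motors.

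The mitotic kinesins summed to 179, 198 and 194 FPKM in the 3 siCONTROL libraries, 141, 142 and 140 after siKEAP1, 98.2, 111 and 103 after siCCNF, and 125, 131 and 119 after both siRNAs. No library of a depleted group reached the lowest siCONTROL library, and the siCCNF libraries were the lowest of all. The transport kinesins summed to 140, 159 and 159 FPKM in siCONTROL, 169, 176 and 179 after siKEAP1, 147, 146 and 144 after siCCNF, and 145, 141 and 125 after both. Here the siKEAP1 libraries lay above all others. The siCCNF and siKEAP1/siCCNF libraries overlapped with siCONTROL only through siCONTROL replicate 1, in which long genes were low, and lay below the other siCONTROL libraries. The lowest sum, 125, is that of siKEAP1/siCCNF replicate 3, in which long genes were low as well.

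**Figure D1:**
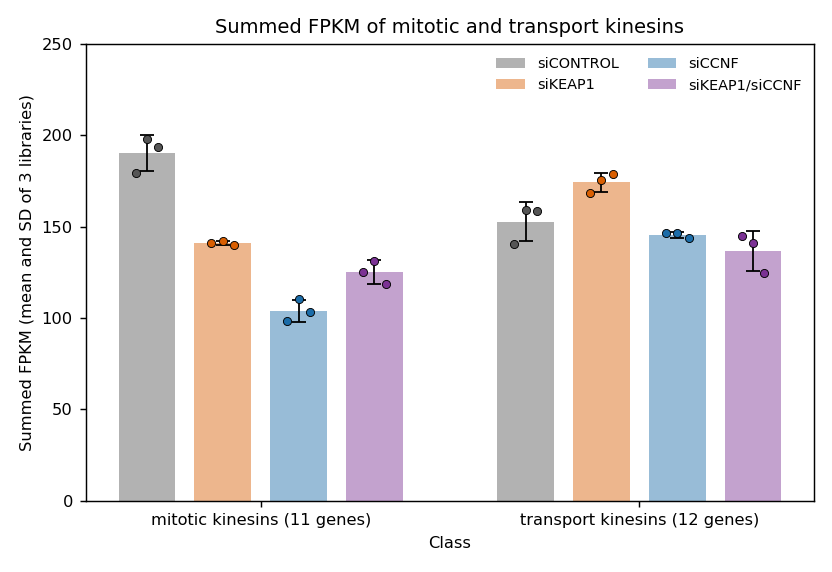
Summed FPKM (vertical axis, from 0) of the 11 tested mitotic and 12 tested transport kinesins in the 4 siRNA groups. Bars and whiskers are the mean and SD of 3 libraries and dots are libraries. The mitotic sum fell from 190 ± 9.79 in siCONTROL to 104 ± 6.19 after siCCNF, and the transport sum was 153 ± 10.6 and 146 ± 1.68 in the same groups.

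Each depletion was compared with the same siCONTROL libraries, so the 3 comparisons are not independent of each other. P-values are from the quasi-likelihood test of edgeR, adjusted after Benjamini and Hochberg over all 15122 genes. After siCCNF, all 11 mitotic kinesins fell, with log2 fold changes from -1.29 to -0.68 and a median of -0.86, beside 0.01 for all genes tested. In that comparison 25.5% of all genes were called lower and 22.5% higher. After both siRNAs all 11 fell as well, with a median of -0.63, beside 0.01 for all genes, of which 23.6% were called lower and 20.6% higher. After siKEAP1 8 of 11 fell, with a median of -0.48, beside -0.01 for all genes, of which 20.2% were called lower and 20.4% higher. No kinesin assigned to mitosis rose in any of the 3 comparisons. Kif2a, a depolymerase of spindles and of neurons that was assigned to other roles, rose after siKEAP1 (1.04 ± 0.06, edgeR adjusted p = 6.0e-08). Without both libraries in which long genes were low, 11 of 11 fell in each comparison.

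With the further requirement of a 2-fold change, the mitotic kinesins called lower were Kif14, Kif22 and Kif15 after siCCNF, Kif14 after both siRNAs and none after siKEAP1. Among all genes, 6.76% were called lower and 4.61% higher by this rule after siCCNF, 5.54% and 4.73% after both, and 3.88% and 7.59% after siKEAP1. The falls of most mitotic kinesins were therefore beyond the spread of replicates but smaller than 2-fold.

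**Figure D2:**
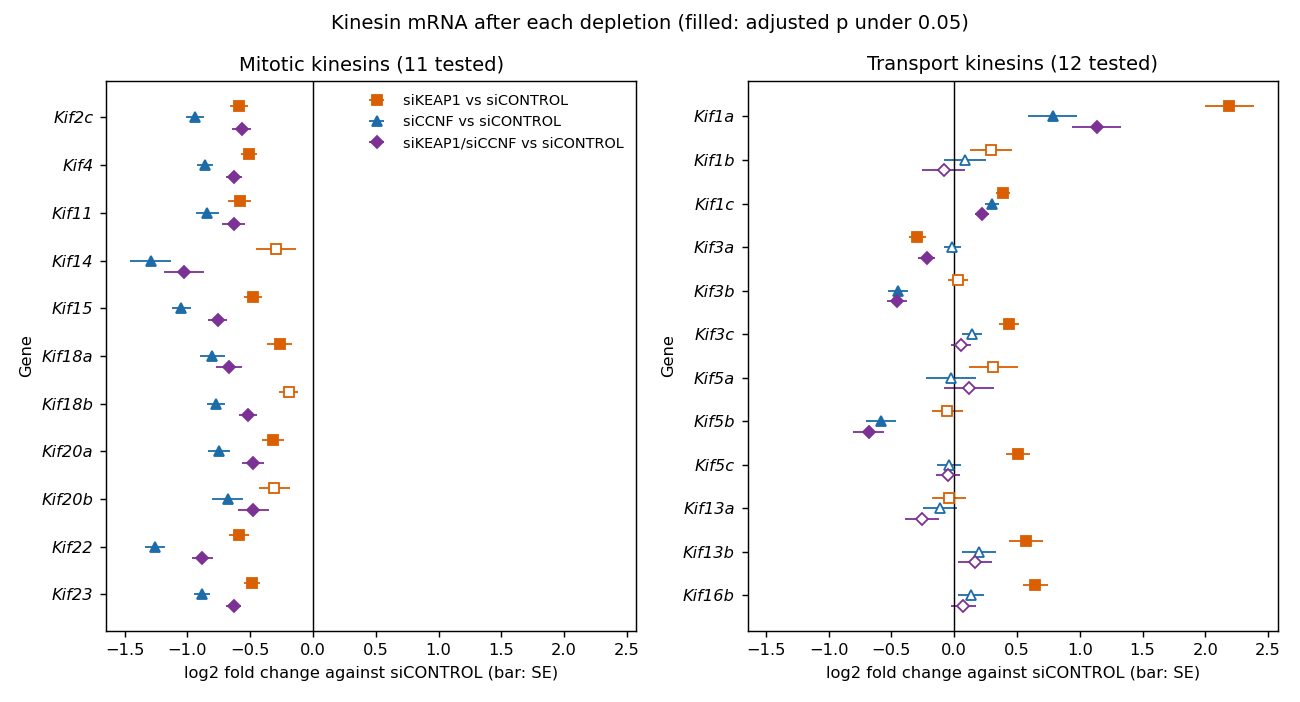
The log2 fold change of each depletion against siCONTROL (horizontal axis) for 11 mitotic and 12 transport kinesins, with the SE as bars and filled symbols for an adjusted p under 0.05. All mitotic values lie below 0, with siCCNF lowest for every gene, while the transport values spread on both sides of 0 and Kif1a reaches 2.19 after siKEAP1.

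Among the motors that build the bipolar spindle, Kif11 was measured at 174, 192 and 194 CPM in siCONTROL, 126, 123 and 124 after siKEAP1, 97.1, 109 and 107 after siCCNF, and 125, 134 and 102 after both. The siCONTROL libraries stood above all 9 depleted libraries. Its log2 fold change was -0.58 ± 0.09 (SE) after siKEAP1 (edgeR adjusted p = 0.00018), -0.84 ± 0.09 after siCCNF (edgeR adjusted p = 6.5e-06) and -0.63 ± 0.09 after both (edgeR adjusted p = 8.7e-05). Kif15, a kinesin-12 that keeps spindles bipolar beside Kif11, was at 69.5, 74.5 and 74.9 CPM in siCONTROL, 52.5, 54.2 and 50.5 after siKEAP1, 33.3, 35.9 and 36.7 after siCCNF and 41.7, 47.3 and 40.2 after both. These groups followed each other without overlap, and Kif15 fell by 1.05 ± 0.08 on the log2 scale after siCCNF (edgeR adjusted p = 1.8e-07), to 48.3% of the siCONTROL mean.

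Motors that work on chromosomes and microtubule ends were also highest in siCONTROL and lowest after siCCNF. Kif22, a chromosome arm motor, was at 101, 93.5 and 89.9 CPM in siCONTROL, 64.0, 63.5 and 61.1 after siKEAP1, 36.7, 42.7 and 39.2 after siCCNF and 47.9, 49.96 and 56.5 after both. No 2 groups overlapped, and the log2 fold change was -0.59 ± 0.08 after siKEAP1, -1.26 ± 0.08 after siCCNF and -0.88 ± 0.08 after both (edgeR adjusted p = 5.8e-05, 7.4e-08 and 1.8e-06). Kif2c (MCAK), a microtubule depolymerase of centromeres, was at 85.7, 85.3 and 78.8 CPM in siCONTROL, 56.2, 53.8 and 56.1 after siKEAP1, 40.1, 47.4 and 42.8 after siCCNF and 54.9, 54.2 and 59.4 after both. After both siRNAs Kif2c was at the siKEAP1 level and above siCCNF.

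Kif18a and Kif18b are kinesin-8 motors, of which the former dampens the movement of chromosomes and the latter shortens astral microtubules. Kif18a was at 30.7, 31.3 and 28.9 CPM in siCONTROL, 27.5, 25.0 and 23.2 after siKEAP1, 15.9, 18.8 and 17.6 after siCCNF and 19.2, 21.04 and 16.8 after both. It fell by 0.80 ± 0.10 on the log2 scale after siCCNF (edgeR adjusted p = 2.3e-05), while its value after siKEAP1 was only just called (-0.27 ± 0.10, edgeR adjusted p = 0.048). That siKEAP1 call was lost under 10 of the other settings. Kif18b was at 64.4, 71.3 and 75.0 CPM in siCONTROL, 58.1, 62.9 and 63.3 after siKEAP1, 39.0, 44.0 and 40.3 after siCCNF and 48.4, 50.4 and 48.4 after both. It was not called after siKEAP1 (-0.19 ± 0.07, edgeR adjusted p = 0.052) and fell by 0.77 ± 0.07 after siCCNF (edgeR adjusted p = 2.4e-06). Kif4, a chromosome-bound motor that acts with Prc1 at the midzone, was at 72.4, 74.4 and 77.7 CPM in siCONTROL, 49.7, 51.9 and 56.1 after siKEAP1, 39.9, 41.6 and 42.0 after siCCNF and 47.4, 49.0 and 49.1 after both. Its exons share 15.1% of their bases with Pdzd11 on the opposite strand, and it is not known whether reads were counted by strand. Pdzd11 itself was at 41.9 ± 4.21 CPM in siCONTROL, 22.6 ± 0.233 after siKEAP1, where it was called lower, and 40.0 ± 1.30 after siCCNF, where it was not, and its part in the Kif4 values was not tested.

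Of the motors of cytokinesis, Kif23 (MKLP1), the motor of centralspindlin, was at 133, 134 and 134 CPM in siCONTROL, 93.8, 101 and 91.4 after siKEAP1, 70.0, 76.5 and 70.8 after siCCNF and 86.0, 89.4 and 83.2 after both. All 4 groups stood apart, and its log2 fold change was -0.49 ± 0.06 after siKEAP1, -0.88 ± 0.06 after siCCNF and -0.63 ± 0.06 after both (edgeR adjusted p = 3.5e-05, 1.5e-07 and 3.3e-06). Kif20a (MKLP2), which brings the chromosomal passenger complex to the midzone, was at 122, 152 and 144 CPM in siCONTROL, 114, 113 and 108 after siKEAP1, 79.3, 91.0 and 78.8 after siCCNF and 102, 105 and 92.7 after both. It fell by 0.75 ± 0.09 on the log2 scale after siCCNF (edgeR adjusted p = 1.5e-05). Its exons share 29.3% of their bases with the opposite-strand gene Cdc23. Cdc23 was at 86.9 ± 4.95 CPM in siCONTROL, 69.3 ± 0.595 after siKEAP1, 70.6 ± 2.13 after siCCNF and 71.2 ± 2.59 after both. It was called lower after each depletion, and its part in the Kif20a values was not tested.

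Kif14, which acts with citron kinase in cytokinesis, was at 35.3, 51.8 and 53.9 CPM in siCONTROL, 37.8, 38.3 and 38.9 after siKEAP1, 17.7, 20.5 and 19.3 after siCCNF and 24.1, 27.0 and 17.7 after both. The low values of its siCONTROL and siKEAP1/siCCNF groups are those of the libraries in which long genes were low. Its fall of 1.29 ± 0.16 on the log2 scale after siCCNF (edgeR adjusted p = 2.4e-05) left 40.8% of the siCONTROL mean, the lowest share of the 11. After siKEAP1 its groups overlapped and it was not called (-0.29 ± 0.16, edgeR adjusted p = 0.16). Kif20b (MPP1), of late cytokinesis, was at 79.4, 103 and 99.7 CPM in siCONTROL, 77.8, 77.2 and 73.0 after siKEAP1, 53.1, 62.3 and 61.1 after siCCNF and 68.3, 78.6 and 55.9 after both. It was not called after siKEAP1 (-0.31 ± 0.12, edgeR adjusted p = 0.061) and fell after siCCNF (-0.68 ± 0.12, edgeR adjusted p = 0.00052).

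**Figure D3:**
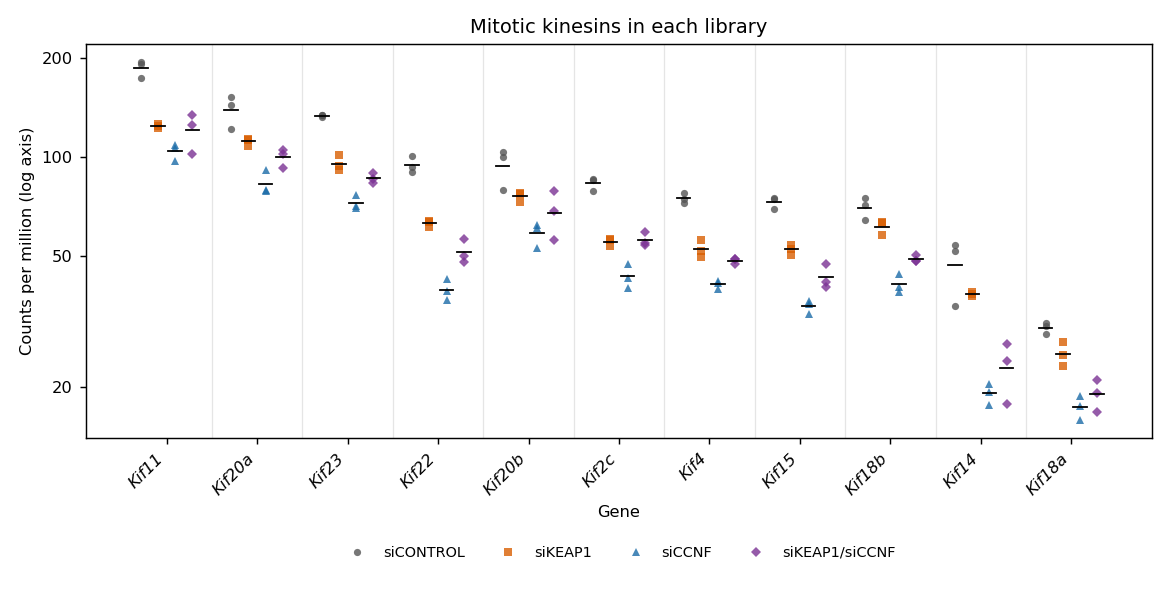
Library-scaled counts (CPM, log axis) of the 11 tested mitotic kinesins in each of the 12 libraries, with black lines at the group means. For every gene the siCCNF libraries lie below the siCONTROL libraries, for example 97.1 to 109 against 174 to 194 CPM for Kif11.

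Genes of G2 and M phase often carry, close to the transcription start, the cell cycle genes homology region (CHR), whose letters TTTGAA are bound by the MuvB complex together with B-MYB and FOXM1, and CCAAT boxes, which are bound by NF-Y. The RefSeq promoter windows of GRCm38.p6, from 250 bases before to 50 after the start, were searched on both strands for TTTGAA, for the variant TTTAAA and for CCAAT, none of which contains another. A window was found for 31 of the 39 members, 11 of them mitotic. These mitotic windows were those of Kif2b and of the tested mitotic kinesins except Kif20a, for which no window was found. TTTGAA was present in 9 of these 11, in 1 of 10 transport kinesins (Kif1a), in 1 of 5 of cilia and centrioles (Kif27), in 1 of 5 others (Kif26b) and in 20.2% of the windows of 27025 genes. Within 50 bases on either side of the start it was present in 7 of 11 mitotic kinesins, in 1 of 10 transport kinesins (Kif1a), in 1 of 5 others (Kif26b), in none of 5 of cilia and centrioles and in 5.72% of all windows. Neither Kif1a nor Kif26b fell after siCCNF. TTTAAA was present in 2 of 11 (14.9% of all), CCAAT in 7 of 11 (41.1%) and TTTGAA together with CCAAT in 6 of 11 (7.97%). The mitotic windows without TTTGAA were those of Kif18a, which fell, and of Kif2b, which had no read.

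The TTTGAA matches near the start of the mitotic kinesins are shown because these genes fell together after siCCNF. Each is 30 bases long and runs 5′ to 3′ on the strand of the gene, with the motif in capitals (TTCAAA where it reads on the other strand).
Kif11, chr19:37376351-37376380, plus strand, motif 19 bases before the start: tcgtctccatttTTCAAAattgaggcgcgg
Kif15, chr9:122951050-122951079, plus strand, motif 19 bases before the start: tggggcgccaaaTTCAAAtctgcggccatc
Kif22, chr7:127042420-127042449, minus strand, motif 17 bases before the start: gggccccggtaaTTCAAAagagagaagcgg
Kif23, chr9:61946780-61946809, minus strand, motif from base 2 after the start: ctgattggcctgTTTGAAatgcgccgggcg
Kif18b, chr11:102925104-102925133, minus strand, motif from base 3 after the start: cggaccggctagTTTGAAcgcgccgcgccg
Kif20b, chr19:34922353-34922382, plus strand, motif from base 7 after the start: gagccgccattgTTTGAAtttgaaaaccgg
Kif4, chrX:100626072-100626101, plus strand, motif from base 19 after the start: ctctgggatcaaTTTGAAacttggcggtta
The first 4 of these also differed by at most 51 bases from the start of the deposited gene, and Kif18b and Kif20b by at most 3. The RefSeq start of Kif4 lies 328 bases inside the deposited gene, and those of Kif14 and Kif2c lie 1505 and 3867 bases inside, so the latter windows, with TTTGAA 228 and 103 bases before the start, may not be the promoter used here. Of the transport kinesins, the Kif1a window lies 19471 bases inside the gene. For windows without any match, among them that of Kif18a, this distance was not computed, so they too may not be the promoter used here. The stretch of Kif20b holds a second TTTGAA, from base 13 after the start, which is left in lower case. A match to 6 letters is a description of the window and does not show that a factor binds there.

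After siKEAP1 6 of 12 transport kinesins rose and 1 fell, with a median log2 fold change of 0.35, beside the 20.4% of all genes called higher and 20.2% called lower. Without both libraries in which long genes were low, 10 of 12 were called in either direction, with a median of 0.28. After siCCNF 2 rose and 2 fell, with a median of 0.04, and after both 2 rose and 3 fell, with a median of 0.00, where 22.5% and 20.6% of all genes were called higher and 25.5% and 23.6% lower. The median after siCCNF lay between -0.07 and 0.12 when single libraries were left out, so its sign was not settled.

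Kif1a, which carries synaptic vesicle precursors in neurons, was at 4.35, 3.42 and 3.997 CPM in siCONTROL, 16.4, 18.5 and 19.0 after siKEAP1, 4.82, 7.97 and 7.62 after siCCNF and 7.26, 10.1 and 8.44 after both. Each depleted group stood above siCONTROL, and siKEAP1 above the rest. The log2 fold change was 2.19 ± 0.19 after siKEAP1, 0.78 ± 0.20 after siCCNF and 1.13 ± 0.20 after both (edgeR adjusted p = 1.3e-06, 0.0051 and 0.00039), from 63 to 457 reads per library. The neural marker Tubb3 was at 26.2 ± 3.06 CPM in siCONTROL, 46.0 ± 2.22 after siKEAP1, 5.72 ± 1.08 after siCCNF and 8.25 ± 1.14 after both. It rose with Kif1a after siKEAP1 and fell after siCCNF, and its part in the result was not tested.

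Kif16b, an early endosome motor, was at 30.6, 37.7 and 41.7 CPM in siCONTROL, 54.8, 57.5 and 59.5 after siKEAP1, 40.0, 41.0 and 39.6 after siCCNF and 40.0, 40.7 and 34.7 after both. Only the siKEAP1 libraries stood apart from siCONTROL, at a log2 fold change of 0.64 ± 0.10 (edgeR adjusted p = 0.00020). Kif13b (GAKIN) had the same layout, at 30.6, 43.9 and 44.5 CPM in siCONTROL, 58.0, 58.7 and 59.5 after siKEAP1, 43.8, 47.0 and 45.3 after siCCNF and 50.6, 45.7 and 36.6 after both, and rose by 0.57 ± 0.13 on the log2 scale after siKEAP1 (edgeR adjusted p = 0.0042). Kif5c and Kif3c, a kinesin-1 and a kinesin-2 found mainly in neurons, rose after siKEAP1 by 0.51 ± 0.10 and 0.44 ± 0.08 (edgeR adjusted p = 0.00080 and 0.00067). Neither was called in the other depletions, where their values lay between -0.05 and 0.15. The exons of Kif3c share 35.3% of their bases with a gene on the opposite strand, 1110002L01Rik.

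Kif1c, one of the most abundant members, was at 321 to 334 CPM in siCONTROL, 420 to 438 after siKEAP1, 385 to 422 after siCCNF and 368 to 390 after both. It rose in all 3 comparisons, by 0.39 ± 0.06, 0.30 ± 0.06 and 0.22 ± 0.06 on the log2 scale (edgeR adjusted p = 0.00010, 0.00069 and 0.0062). With Kif1a it was the only transport kinesin called in the same direction in all 3.

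Of the widely used motors, Kif5b and Kif3b fell after siCCNF. Kif5b was at 309, 354 and 364 CPM in siCONTROL, 308, 336 and 345 after siKEAP1, 215, 237 and 234 after siCCNF and 240, 236 and 164 after both. Both groups that received siCCNF stood below siCONTROL and siKEAP1, with the lowest value in siKEAP1/siCCNF replicate 3, in which long genes were low. Its log2 fold change was -0.06 ± 0.12 after siKEAP1 (edgeR adjusted p = 0.75), -0.58 ± 0.12 after siCCNF (edgeR adjusted p = 0.0016) and -0.68 ± 0.12 after both (edgeR adjusted p = 0.00053). Kif3b, a kinesin-2 of intraflagellar transport, was at 64.1, 76.1 and 77.1 CPM in siCONTROL, 73.2, 73.4 and 75.6 after siKEAP1, 50.9, 55.7 and 52.7 after siCCNF and 54.6, 55.0 and 49.0 after both. It too fell in both groups that received siCCNF, by 0.45 ± 0.08 in each (edgeR adjusted p = 0.00044 and 0.00045). Its partner Kif3a had a different pattern, with a fall of 0.29 ± 0.07 after siKEAP1 (edgeR adjusted p = 0.0037) and of 0.22 ± 0.07 after both (edgeR adjusted p = 0.018), and a value of -0.01 ± 0.07 after siCCNF. The Kif3a call after both was lost under 5 of the other settings. Kif1b, Kif5a and Kif13a were not called against siCONTROL, with log2 fold changes from -0.26 to 0.31. Kif1b and Kif13a were lowest in the libraries with low long genes: the former was at 135, 210 and 212 CPM in siCONTROL and 201, 194 and 129 after both.

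Among the kinesins of cilia and centrioles, Kif19a, which sets the length of cilia, was at 0.672, 0.922 and 0.241 CPM in siCONTROL, 3.34, 2.71 and 4.17 after siKEAP1, 0.114, 0.233 and 0.295 after siCCNF and 0.436, 0.216 and 0.308 after both. The siKEAP1 libraries stood above all others, and the log2 fold change of 2.48 ± 0.39 (edgeR adjusted p = 0.00022) rests on 4 to 95 reads per library. After siCCNF its libraries overlapped with siCONTROL, and the call of a fall by 1.48 ± 0.51 (edgeR adjusted p = 0.028) was lost under 6 of the other settings. Kif24, which holds back cilium formation at centrioles, was at 13.04, 17.4 and 18.8 CPM in siCONTROL, 12.4, 13.1 and 9.78 after siKEAP1, 7.84, 10.7 and 11.2 after siCCNF and 12.7, 12.8 and 9.84 after both. It fell by 0.73 ± 0.18 after siCCNF (edgeR adjusted p = 0.0040), and by 0.48 ± 0.18 after siKEAP1 and 0.48 ± 0.18 after both (edgeR adjusted p = 0.046 and 0.042). These last calls were lost under 11 and 9 of 21 other settings.

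Kif7, a kinesin of the cilium tip in Hedgehog signalling, was at 16.9, 18.2 and 20.2 CPM in siCONTROL, 20.1, 22.6 and 23.6 after siKEAP1, 16.2, 13.2 and 14.3 after siCCNF and 16.5, 17.3 and 18.6 after both. It fell by 0.34 ± 0.10 after siCCNF (edgeR adjusted p = 0.017), a call that was lost under 3 of the other settings. Its exons share 19.1% of their bases with an opposite-strand gene, 9330171B17Rik, which had 10 reads in all. Kif6 was at 0.538, 1.14 and 0.674 CPM in siCONTROL, 0.790, 0.932 and 0.921 after siKEAP1, 1.08, 1.28 and 1.80 after siCCNF and 0.794, 1.201 and 1.27 after both. Its siCONTROL and siCCNF libraries overlapped, and its call after siCCNF (0.85 ± 0.33, edgeR adjusted p = 0.047) was lost under 14 of 21 other settings. Kif9 was at 1.36 to 3.17 CPM across the libraries and was not called in any comparison.

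The members outside these classes held some of the largest changes after siKEAP1. Kif2a, a depolymerase of spindles and of neurons, was at 60.7, 61.3 and 66.2 CPM in siCONTROL, 121, 136 and 130 after siKEAP1, 54.0, 57.7 and 58.2 after siCCNF and 70.8, 71.1 and 69.1 after both. It rose after siKEAP1 (1.04 ± 0.06, edgeR adjusted p = 6.0e-08), while the siCCNF libraries lay just below siCONTROL (-0.15 ± 0.06, edgeR adjusted p = 0.076). After both siRNAs the libraries stood just above siCONTROL, without a call (0.16 ± 0.06, edgeR adjusted p = 0.054). Kif2a was called lower after siCCNF under 2 and higher after both under 5 of the other settings. Its exons share 19.2% of their bases with the opposite-strand gene Dimt1, which was at 11.2 ± 0.848 CPM in siCONTROL and 10.7 ± 1.45 after siKEAP1. Kif21a, which restrains microtubule growth, was at 26.2, 41.6 and 43.3 CPM in siCONTROL, 89.8, 102 and 109 after siKEAP1, 29.9, 38.2 and 40.0 after siCCNF and 45.9, 52.5 and 31.4 after both. It rose by 1.44 ± 0.20 after siKEAP1 (edgeR adjusted p = 8.5e-05) and was not called in the other depletions (-0.04 ± 0.20 and 0.23 ± 0.20). Its lowest siCONTROL and siKEAP1/siCCNF values are again those of the libraries in which long genes were low.

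Kif26b, a member of the kinesin-11 group known from kidney development, went the other way. It was at 26.4, 34.5 and 40.0 CPM in siCONTROL, 10.5, 11.8 and 15.2 after siKEAP1, 38.9, 44.2 and 46.1 after siCCNF and 37.5, 34.1 and 23.9 after both, and fell by 1.42 ± 0.19 after siKEAP1 (edgeR adjusted p = 5.5e-05). Kif21b, a relative of Kif21a in neurons and lymphocytes, was at 25.8, 42.1 and 37.5 CPM in siCONTROL, 24.1, 21.8 and 24.3 after siKEAP1, 49.8, 48.6 and 52.1 after siCCNF and 43.6, 40.7 and 30.3 after both. It fell by 0.58 ± 0.16 after siKEAP1 and rose by 0.52 ± 0.16 after siCCNF (edgeR adjusted p = 0.011 and 0.016). Kif1bp fell by 0.25 ± 0.09 after siKEAP1 (edgeR adjusted p = 0.031) and lay at 0.03 ± 0.08 and 0.00 ± 0.09 in the other depletions. Its siKEAP1 call was lost under 4 of the other settings.

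**Figure D4:**
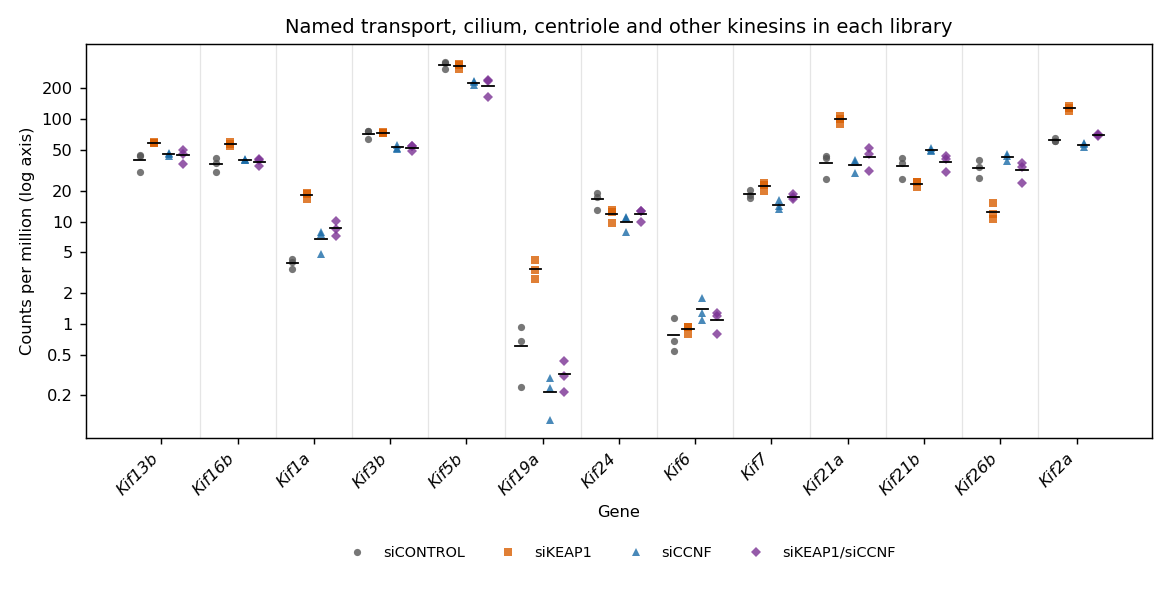
Library-scaled counts (CPM, log axis) of the named transport, cilium, centriole and other kinesins in each of the 12 libraries, with black lines at the group means. Kif1a, Kif19a, Kif21a and Kif2a are highest and Kif26b is lowest after siKEAP1, while Kif5b and Kif3b are low in both groups that received siCCNF.

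The double depletion was then set against each single one, which asks what the second siRNA added. Against siKEAP1, 5 of 11 mitotic kinesins fell and none rose, with a median of -0.17, beside the 26.9% of all genes called lower and 24.1% called higher. They were Kif14 (-0.73 ± 0.16), Kif18a (-0.40 ± 0.10), Kif18b (-0.32 ± 0.07), Kif22 (-0.29 ± 0.08) and Kif15 (-0.28 ± 0.07), with edgeR adjusted p from 0.0019 to 0.0087. With single libraries left out this median ranged from -0.27 to -0.12. Of the transport kinesins 8 of 12 fell and none rose, with a median of -0.40. They included the members that were raised by siKEAP1 alone, Kif1a (-1.06 ± 0.18), Kif16b (-0.57 ± 0.10), Kif5c (-0.56 ± 0.09), Kif13b (-0.41 ± 0.13), Kif3c (-0.39 ± 0.08) and Kif1c (-0.17 ± 0.06), and the 2 that were lower after siCCNF alone, Kif5b (-0.63 ± 0.12) and Kif3b (-0.49 ± 0.08), with edgeR adjusted p from 0.00021 to 0.024. Kif21a (-1.21 ± 0.20), Kif2a (-0.87 ± 0.06) and Kif19a (-3.42 ± 0.42) also fell against siKEAP1, and Kif26b (1.35 ± 0.19) and Kif21b (0.71 ± 0.16) rose, each at an edgeR adjusted p of 0.0025 or lower. Kif7 fell (-0.34 ± 0.10, edgeR adjusted p = 0.015) and Kif1bp rose (0.26 ± 0.09, edgeR adjusted p = 0.024).

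Against siCCNF, few kinesins were called, and few genes in all (3.00% higher and 2.19% lower). All 11 mitotic kinesins had values above 0, from 0.13 to 0.38, and 4 were called higher, namely Kif22 (0.38 ± 0.08), Kif2c (0.37 ± 0.07), Kif15 (0.29 ± 0.07) and Kif23 (0.25 ± 0.06), with edgeR adjusted p = 0.016, 0.011, 0.041 and 0.032. This count depended on single libraries. It was 0 without siCCNF replicate 1 or 3, 2 without any one of siCONTROL replicate 2, siKEAP1 replicate 1, siCCNF replicate 2, or siKEAP1/siCCNF replicate 1 or 2, 7 without siCONTROL replicate 1, and 10 without both libraries in which long genes were low. No transport kinesin was called, and 1 was without both of those libraries. Kif2a rose by 0.31 ± 0.06 (edgeR adjusted p = 0.013).

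The interaction is the change with siKEAP1 in CCNF-depleted cells minus its change in control cells, and it was tested in the same fit. For the mitotic kinesins it was positive in all 11, with a median of 0.74, and called in 8, beside 10.6% of all genes called higher and 10.5% called lower. In CCNF-depleted cells siKEAP1 thus gave no further fall. The 8 called, except Kif18b, were also called lower after siKEAP1 alone, a difference that the interaction contains. Kif22, for example, changed by -0.59 ± 0.08 with siKEAP1 in control cells and by 0.38 ± 0.08 in CCNF-depleted cells, an interaction of 0.97 ± 0.11 (edgeR adjusted p = 7.4e-05). For the transport kinesins it was called in 6 of 12, all negative, with a median of -0.46, or -0.21 without both libraries in which long genes were low. They were the 6 that rose after siKEAP1 alone, a difference that the interaction contains. For Kif1a, for example, siKEAP1 gave 2.19 ± 0.19 in control cells and 0.35 ± 0.18 in CCNF-depleted cells, an interaction of -1.84 ± 0.26 (edgeR adjusted p = 0.00032). Of the others, Kif21a and Kif2a had negative and Kif26b a positive interaction. The depletion of the siRNA targets differed between the groups compared here: Keap1 was at 12.6 ± 0.279 CPM after siKEAP1 and 24.1 ± 2.56 after both, from 87.8 ± 3.05 in siCONTROL, and Ccnf at 59.4 ± 4.83 after siKEAP1, 20.5 ± 0.778 after siCCNF and 24.5 ± 1.00 after both, from 81.1 ± 3.99. Their part in the interaction was not tested.

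**Figure D5:**
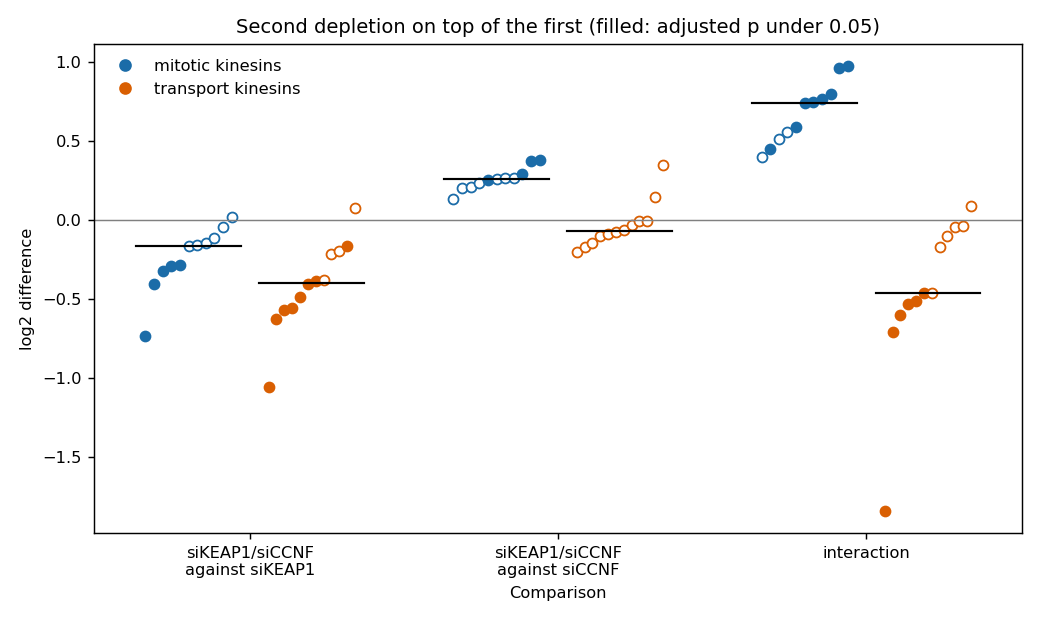
The log2 difference (vertical axis) of siKEAP1/siCCNF against siKEAP1 and against siCCNF, and the interaction, for each tested mitotic and transport kinesin. Filled dots have an adjusted p under 0.05 and black lines are class medians, which for the interaction are 0.74 for mitotic and -0.46 for transport kinesins.

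Proteins that work with the mitotic kinesins were followed as a list of 20 genes. After siCCNF 17 of 20 fell and none rose, with a median of -0.97, beside 25.5% of all genes called lower and 22.5% higher, and those with the largest log2 fold changes were Ccnb1 (-1.18), the mitotic cyclin, Tpx2 (-1.13), which guides spindle assembly, and Bub1 (-1.12), a checkpoint kinase. Racgap1, the partner of Kif23 in centralspindlin, had a value of -1.12 as well. After siKEAP1 15 fell and 1 rose, with a median of -0.42, and after both 17 fell and 1 rose, with a median of -0.69. Over all genes 20.2% were called lower after siKEAP1 and 23.6% after both. The interaction was called positive in 17 of 20, beside 10.6% of all genes. Of the 13 regulators in MuvB complexes or acting with them, 11 fell and 2 rose after siCCNF, with a median of -0.54, beside the same 25.5% and 22.5% of all genes, led by Tfdp1 (-1.12), Rbl1 (-0.93) and Mybl2 (-0.78). After siKEAP1 6 of the 13 fell and none rose, with a median of only -0.11, beside 20.2% of all genes called lower. Among those that fell were Mybl2, which encodes B-MYB (-1.10), and Foxm1 (-0.47).

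Of 9 tested kinesins and kinesin subunits that the symbol rule does not reach, 4 fell and 1 rose after siCCNF, where 25.5% of all genes were called lower and 22.5% higher. Those with the largest values were Klc3 (-1.04), a light chain at 3.88 CPM in siCONTROL cells, Kifc1 (-0.87), a minus-end motor of the spindle, and Kifap3 (-0.61), which joins Kif3a and Kif3b to their cargo. Cenpe, the kinetochore motor, had a value of -0.57 after siCCNF and -0.47 after siKEAP1, both called. The light chains Klc1, Klc2 and Klc4 were not called in any comparison.

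Of 15 cargo adaptors tested of 17, 3 rose and 4 fell after siKEAP1, 5 and 3 after siCCNF and 6 and 4 after both. Over all genes, 20.4% were called higher and 20.2% lower after siKEAP1, 22.5% and 25.5% after siCCNF and 20.6% and 23.6% after both. The siKEAP1 counts are near these shares. After both siRNAs a larger share of the adaptors than of all genes rose, in a list of only 15 genes. After siCCNF the largest changes were those of Trak2 (-1.53), an adaptor of mitochondria, Hap1 (1.38) and Mapk8ip3 (0.63). Of 18 subunits of cytoplasmic dynein and dynactin, the minus-end motor and its cofactor, 3 rose and 5 fell after siKEAP1, 2 and 7 after siCCNF and 1 and 6 after both, beside the same shares of all genes. After siCCNF the largest changes were those of Dync1i1 (-3.09), an intermediate chain at 2.45 CPM in siCONTROL cells, Dynll1 (-0.72) and Dync1h1 (0.57), the heavy chain. The median of this list lay between -0.10 and -0.07 in the 3 comparisons with siCONTROL.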

How the data were processed

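Poly(A) RNA of 12 libraries was measured in 4 groups of 3, taken from the sample labels. Novogene made the libraries, sequenced them and processed the reads. The authors deposited, per gene and library, a raw read count and an FPKM value, which is scaled for gene length and library size. The submitters' notes name HISAT2 and GRCm39, but the coordinates of 38 of the 39 members equal those of GRCm38 (GENCODE M21). The counting tool and its use of strand are not given in the sources used here, nor is the handling of reads shared by paralogs. The deposited table also holds log2 fold changes and p-values of the authors' own comparisons, which were not used.

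The counts went into edgeR 4.0.16 (R 4.3.3). filterByExpr kept 15122 genes, TMM factors scaled the libraries, and one quasi-likelihood fit with a mean per group gave all contrasts. Adjusted p-values follow Benjamini and Hochberg across every gene tested, and calls use an adjusted p under 0.05. The SE is the log2 fold change divided by the square root of F. CPM (per TMM-scaled library) are given as mean ± SD. The totals of 18464209 to 37743198 counts per library set the counting error, the only error that floors cover. On simulated data for siCCNF against siCONTROL the test found 171 of 200 changed genes, with 12 false calls. The simulation gave every gene the same dispersion, no trend with gene length and far fewer changed genes, so these rates need not hold in the real data. Values in every library are given for the tested mitotic kinesins and for the 3 largest called changes per depletion within the transport, the cilium and centriole, and the other kinesins with a mean of at least 1 CPM. Of further lists, the 3 largest called changes after siCCNF are named. Other genes named were chosen after their values were seen. Deviations of same-numbered replicates correlated at r from -0.27 to 0.20, and those of other pairs at -0.28 to 0.39. Among siCONTROL, siKEAP1 and siCCNF the same-numbered values were all positive, from 0.0035 to 0.20, and the negative ones involved siKEAP1/siCCNF. Whether the numbers pair samples is therefore not settled, and the main fit used no pairing. The members and lists were chosen with earlier results of these data known. The alternatives tried were DESeq2 1.42.0, unscaled library totals, no filter on low counts, at least 10 counts in all libraries, a replicate block, limma 3.58.1 on log2(FPKM + 1), a length trend removed by splines with 5 degrees of freedom, the compared groups only, a 2-fold threshold, and leaving out libraries. Promoter windows were matched to members by symbol. Figures were drawn with matplotlib.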

Additional observations from a re-analysis of the deposited data

Results flagged for a closer look

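In 17 of the 33 tested members the change with siKEAP1 differed between CCNF-depleted and control cells by the interaction test (edgeR adjusted p under 0.05), beside 10.6% of all genes with a positive and 10.5% with a negative interaction. Of the mitotic kinesins, the log2 interaction was 0.79 for Kif11, 0.77 for Kif15, 0.45 for Kif18b, 0.59 for Kif20a, 0.97 for Kif22, 0.74 for Kif23, 0.96 for Kif2c and 0.75 for Kif4. Of the transport kinesins it was -1.84 for Kif1a, -0.71 for Kif16b, -0.60 for Kif13b, -0.53 for Kif3c, -0.52 for Kif5c and -0.46 for Kif1c. Of the other kinesins it was -1.17 for Kif21a, -0.73 for Kif2a and 0.99 for Kif26b. The call of Kif13b was lost under 9 of the other settings, with edgeR, DESeq2 or limma adjusted p from 0.057 to 0.089.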

How the results depend on the processing

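The fall of all 11 mitotic kinesins after siCCNF and after both siRNAs was called under every alternative except the 2-fold threshold, which left 3 after siCCNF, 1 after both and 0 after siKEAP1. That threshold left 0 mitotic kinesins in both comparisons of the double with a single depletion and 0 in the interaction, and of the transport kinesins 1 after siKEAP1, 0 after siCCNF, 1 after both, 1 for the double depletion against siKEAP1 and 1 in the interaction. With limma on log2(FPKM + 1), which understates changes of low genes, the mitotic medians were -0.40 after siKEAP1 and 0.63 for the interaction. For the double depletion against siCCNF, the count of mitotic kinesins called was 2 without a filter, 1 with the compared groups only and 10 without both libraries in which long genes were low, and from 0 to 7 with single libraries left out. The transport count there was 1 without those libraries and from 0 to 1 with single libraries left out. Single libraries moved the mitotic median of the double depletion against siKEAP1 from -0.27 to -0.12. Without both libraries the transport interaction median was -0.21, and Kif1b changed sign after siCCNF, to -0.10 (edgeR adjusted p = 0.029, not called with all libraries). The cause of these shifts was not tested. With a replicate block the mitotic counts were 9 after siKEAP1, 3 for the double depletion against siCCNF and 9 for the interaction, and the transport interaction count was 5. Of single genes and comparisons over all alternatives, 3897 values kept direction and side of the threshold, 118 lost and 108 gained a call. Depth limits mainly Kif19a, Kif6, Kif9 and Kif5a, with 4 to 95, 12 to 67, 31 to 118 and 85 to 197 reads per library.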
